A study of Glycine max with 6 samples.

Results

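The circadian clock genes of soybean (Glycine max) hairy roots were described: 10 gene models out of 56044 in the deposited table. They were picked by gene identifier, as the 4 LHY genes, LUX1 and LUX2, ELF3 (J) and its homeolog, PRR3B (Tof12) and GIGANTEA (E2). The names come with the list of identifiers, since the deposited table gives identifiers only. For each of the 10 names the RefSeq table of assembly Glycine_max_v4.0 holds a gene of the same family on the same chromosome (for example E2 with the synonym GIGANTEA on chromosome 10 and ELF3A on chromosome 4), but 0 identifiers could be matched directly.

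Hairy roots are transformed roots that grow from a wound infected with Agrobacterium rhizogenes. The roots of the GmPHD6-OE group came from strain KF1 seedlings infected with K599 bacteria that carried an over-expression construct for GmPHD6. Roots of the RNAi group came from the same strain infected with K599 carrying a GmPHD6 RNAi construct, and roots of the K599 control group are labelled wild type. All 3 groups were infected with K599, so none is an untransformed root, and each group has 2 libraries. Seedlings of 1 week were injected 2 cm above the soil, kept humid for about 2 weeks, grown at 28 °C under a day of 16 h light followed by 8 h darkness, and roots of 2 to 10 cm were harvested. The labels used here give neither the hour of harvest nor the promoter of either construct, nor whether libraries of one group stem from different plants. GmPHD6 itself was not analysed here, because its identifier is not paired with its name, so the effect of the constructs on their target is not shown. Markers of the labelled tissue could not be looked up for the same reason.

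The plant clock is a loop of genes that repress each other at different times of day. LHY proteins are MYB transcription factors made around dawn that repress evening genes. Pseudo-response regulators such as PRR3B are made through the day and repress LHY genes. ELF3 and LUX join in the evening complex, which represses transcription at dusk and in the night, and GIGANTEA, whose transcript in leaves is highest late in the day, acts in clock function and in the control of flowering. In soybean, J (an ELF3 gene), E2 (a GIGANTEA gene) and Tof12 (PRR3B) are known as loci that set flowering and maturity time, and LHY genes act in the same pathway. Most of what is known of these genes in soybean comes from leaves.

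Values are in FPKM, a fragment count divided by transcript length and by sequencing depth, and the authors give a pair of bounds around each. There is 1 value per gene and group, with the libraries of a group combined, so no replicate error and no test across libraries can be given. Columns were compared as the difference between their log2(FPKM + 1) values, a scale on which the change of low genes is understated. Its range is taken from the bounds, lower bound of one column against upper bound of the other. A gene was counted as past the fold rule when the difference reached 1 (2-fold on this scale) and the bounds of the columns did not overlap. The rule was applied to the 33291 genes that were flagged OK throughout and reached 1 FPKM somewhere. All 10 clock genes were among them, and all 30 of their values carried the OK flag. The bounds cover the estimation of the pooled value and hold no spread between plants. For the clock genes they lay between 5.50% and 26.2% from the value.

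None of the 10 clock genes passed the fold rule in any of the 3 comparisons. The rule called 2.22% of all genes with a fold between GmPHD6-OE and K599, 11.2% between RNAi and K599 and 11.9% between GmPHD6-OE and RNAi. Of the 30 clock gene differences, 29 had a range that stayed within 2-fold on this scale. The exception on this scale was ELF3 (J) with GmPHD6-OE against K599, whose range reached -1.05. In plain FPKM, outer bounds were also more than 2-fold apart for ELF3 (J) between GmPHD6-OE (1.91) and RNAi (4.70). The same held for LHY1b between RNAi (1.72) and K599 (3.82). Smaller differences with bounds apart were present in 8 of the 30. They belonged to LHY1a, ELF3 (J), PRR3B and GIGANTEA, and for the other 6 genes the bounds overlapped in every comparison.

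**Figure D1:**
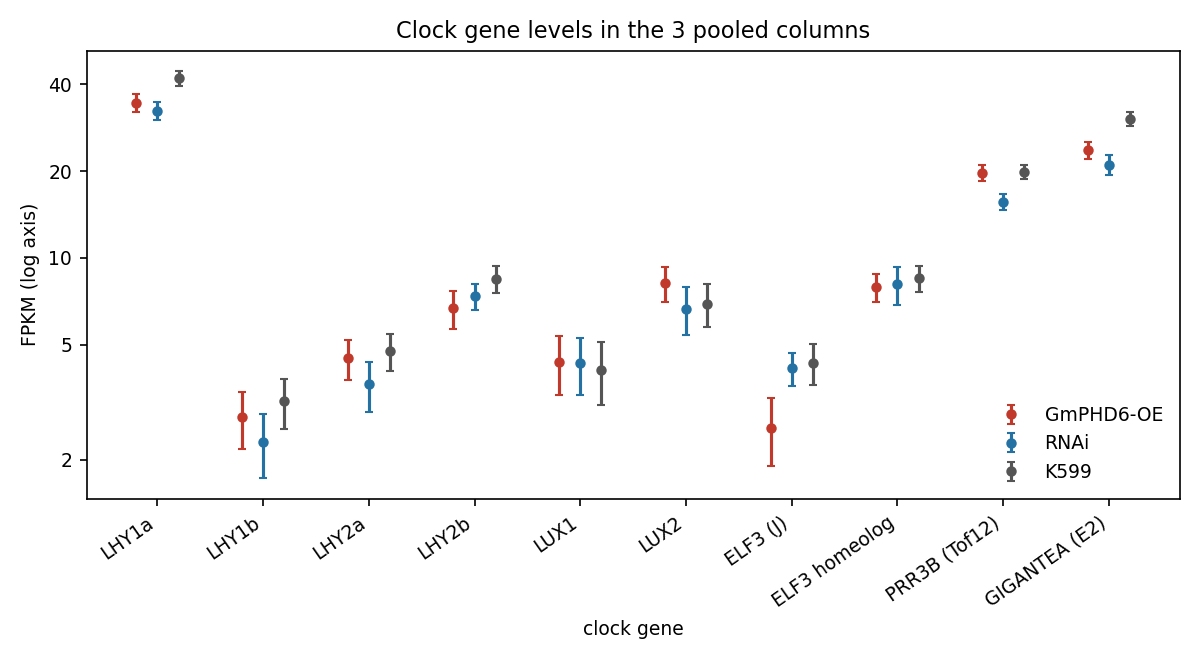
Level of each clock gene in FPKM (log axis) in the GmPHD6-OE, RNAi and K599 columns. Points are the authors' pooled values and bars their lower and upper bounds; LHY1a stands highest in the 3 columns, at 34.5, 32.4 and 42.0 FPKM, followed by GIGANTEA and PRR3B.

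The order of levels was led by the same genes in each column. FPKM is a value per length, so levels can be compared between genes. LHY1a stood above GIGANTEA, GIGANTEA above PRR3B, and PRR3B above the other 7 genes, with bounds apart at each step in the GmPHD6-OE, RNAi and K599 columns. The remaining 7 genes lay between 2.30 and 8.53 FPKM. Among these, LUX2 and the ELF3 homeolog were next to each other in the GmPHD6-OE column with overlapping bounds, as were the ELF3 homeolog and LHY2b in the RNAi column and in the K599 column. LHY1b was lowest in the RNAi and K599 columns. In the GmPHD6-OE column ELF3 (J) was lowest, at 2.59 FPKM, next to LHY1b at 2.81 FPKM, and their bounds overlapped. Against the tested genes of its own column, LHY1a stood higher than 89.2% with GmPHD6-OE, 87.3% with RNAi and 91.5% in K599. ELF3 (J) stood higher than 25.3%, 38.2% and 39.0% in the same columns.

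Among the LHY genes, the dawn transcription factors, LHY1a (Glyma.16G017400, chromosome 16, 1526132 to 1539596) was the main transcript. It read 34.5 FPKM (bounds 32.1 to 36.9) with GmPHD6-OE, 32.4 FPKM (30.1 to 34.8) with RNAi and 42.0 FPKM (39.5 to 44.4) in K599. The K599 column was the high one, and its bounds lay apart from those of both constructs, while the construct columns overlapped as deposited. The log2 difference was -0.27 for GmPHD6-OE against K599 (range -0.46 to -0.10) and -0.36 for RNAi against K599 (-0.55 to -0.18), with 0.09 between GmPHD6-OE and RNAi (-0.11 to 0.29). In bulk RNA, fewer cells that make a transcript and less of it per cell cannot be told apart. LHY1a made up 71.1% of the summed LHY level with GmPHD6-OE, 70.9% with RNAi and 71.9% in K599.

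Its duplicate LHY1b (Glyma.07G048500, chromosome 7, 4102967 to 4114174) was the lowest LHY gene. It read 2.81 FPKM (2.18 to 3.44) with GmPHD6-OE, 2.30 FPKM (1.72 to 2.87) with RNAi and 3.19 FPKM (2.56 to 3.82) in K599. The bounds overlapped among the 3 columns. LHY1a stood 12.3 times higher than LHY1b with GmPHD6-OE, 14.1 times with RNAi and 13.2 times in K599, so the imbalance of the pair was similar in size in each column. The ranges of these ratios, combined in quadrature from the bounds, were 9.67 to 15.6, 10.8 to 18.4 and 10.7 to 16.2.

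The LHY2 pair was more even. LHY2a (Glyma.19G260900, chromosome 19, 50396379 to 50409947) read 4.50 FPKM (3.78 to 5.22) with GmPHD6-OE, 3.65 FPKM (2.94 to 4.36) with RNAi and 4.76 FPKM (4.05 to 5.46) in K599. LHY2b (Glyma.03G261800, chromosome 3, 45502099 to 45510812) read 6.69 FPKM (5.69 to 7.70) with GmPHD6-OE, 7.37 FPKM (6.61 to 8.14) with RNAi and 8.47 FPKM (7.56 to 9.39) in K599. For both genes the bounds overlapped in each comparison. LHY2b was the higher of the pair with bounds apart in each column, at 1.49 times LHY2a with GmPHD6-OE, 2.02 times with RNAi and 1.78 times in K599. The 4 LHY genes were each lower in value in both construct columns than in K599, from -0.30 to -0.07 with GmPHD6-OE and from -0.36 to -0.18 with RNAi. Both comparisons use the same K599 column, so these are not independent of each other.

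Among members of the evening complex, LUX1 and LUX2 are MYB-type DNA-binding proteins. LUX1 (Glyma.12G060200, chromosome 12, 4345125 to 4348039) read 4.35 FPKM (3.35 to 5.36) with GmPHD6-OE, 4.32 FPKM (3.35 to 5.28) with RNAi and 4.10 FPKM (3.09 to 5.11) in K599. These values lay within 6.17% of the K599 value. LUX2 (Glyma.11G136600, chromosome 11, 10366709 to 10369847) read 8.18 FPKM (7.05 to 9.32) with GmPHD6-OE, 6.67 FPKM (5.41 to 7.93) with RNAi and 6.95 FPKM (5.76 to 8.13) in K599. Its highest value was in the GmPHD6-OE column, but the bounds of the 3 columns overlapped. The log2 difference of LUX2 was 0.21 for GmPHD6-OE against K599 (-0.18 to 0.61), and it was the only clock gene besides LUX1 with a value above 0 there. With each column scaled to the same FPKM sum the signs of LUX1 and LUX2 turned for GmPHD6-OE against K599, to -0.17 and -0.06, and LUX1 also turned for RNAi against K599, to -0.06.

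ELF3 (J) (Glyma.04G050200, chromosome 4, 4075900 to 4081260), the scaffold protein of the evening complex, had the largest log2 difference of any clock gene between GmPHD6-OE and K599. It read 2.59 FPKM (1.91 to 3.26) with GmPHD6-OE, 4.15 FPKM (3.61 to 4.70) with RNAi and 4.33 FPKM (3.64 to 5.03) in K599. The GmPHD6-OE column was the low one, with bounds apart from both others, and the RNAi and K599 columns overlapped. The level with GmPHD6-OE was 0.597 times that in K599 and 0.623 times that with RNAi. The log2 difference was -0.57 for GmPHD6-OE against K599 (-1.05 to -0.12), -0.05 for RNAi against K599 (-0.39 to 0.30) and -0.52 for GmPHD6-OE against RNAi (-0.97 to -0.11). Of all genes with a fold, 9.91% differed by more in either direction between GmPHD6-OE and K599, and 30.7% between GmPHD6-OE and RNAi.

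For the homeolog of J the columns were close. Glyma.14G091900 (chromosome 14, 8529299 to 8534053) read 7.91 FPKM (7.06 to 8.77) with GmPHD6-OE, 8.10 FPKM (6.87 to 9.33) with RNAi and 8.53 FPKM (7.65 to 9.40) in K599. Its bounds overlapped in the 3 columns. The homeolog was the higher of the pair in each column, and J stood at 0.327 of it with GmPHD6-OE (range 0.245 to 0.436), 0.512 with RNAi (0.418 to 0.627) and 0.508 in K599 (0.420 to 0.615). A ratio within a column is not changed by scaling the column with a single factor, but quantile normalization can change it. The range of the ratio with GmPHD6-OE still overlapped those of the other columns at its upper end. J and its homeolog are related in sequence, and how fragments shared by both were assigned is not given in the sources used here.

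**Figure D2:**
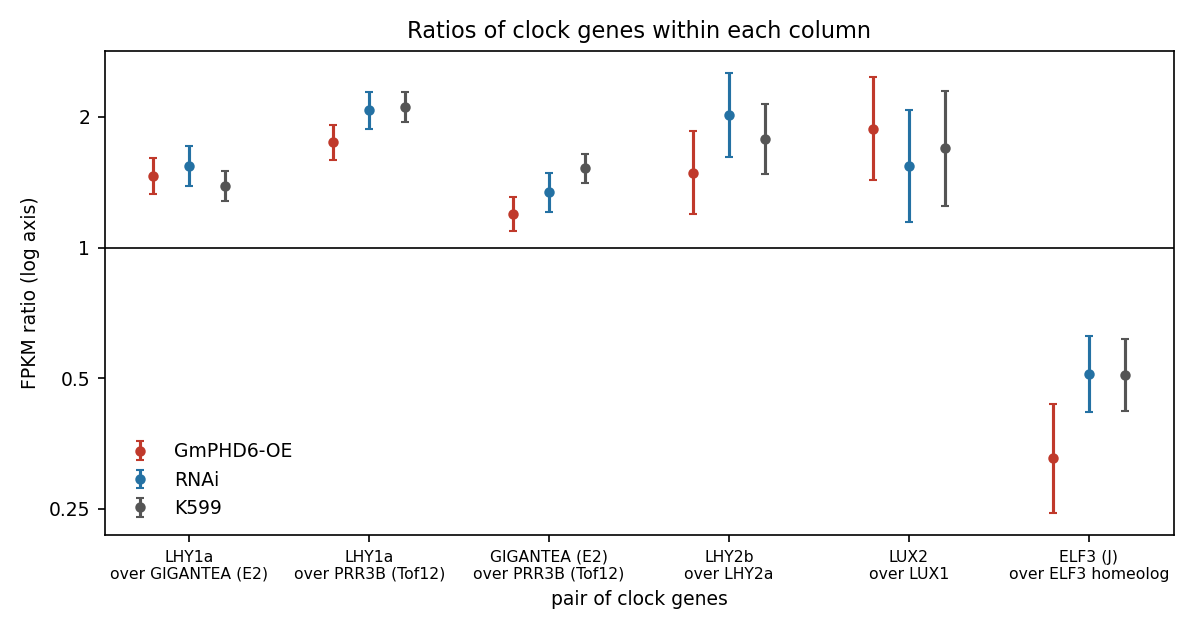
FPKM ratio of pairs of clock genes (log axis) within the GmPHD6-OE, RNAi and K599 columns. Points are ratios of the authors' values and bars combine the authors' bounds in quadrature. J over its homeolog is 0.327 with GmPHD6-OE against 0.508 in K599, with bars that overlap at their ends. LHY1a over GIGANTEA also has overlapping bars in the 3 columns.

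PRR3B (Tof12) (Glyma.12G073900), the daytime repressor, read 19.7 FPKM (18.5 to 20.9) with GmPHD6-OE, 15.7 FPKM (14.6 to 16.7) with RNAi and 19.9 FPKM (18.8 to 21.0) in K599. Here the RNAi column was the low one, with bounds apart from both others, and the GmPHD6-OE and K599 columns overlapped. The log2 difference was -0.01 for GmPHD6-OE against K599 (-0.17 to 0.15), -0.33 for RNAi against K599 (-0.49 to -0.16) and 0.32 for GmPHD6-OE against RNAi (0.14 to 0.49). The deposited locus of PRR3B (chromosome 12, 5507146 to 5522772) is the same as that listed for a second gene model, Glyma.12G073800, so the split of fragments between them is uncertain. That model read 2.87 FPKM with GmPHD6-OE, 0.660 FPKM with RNAi and 5.10 FPKM in K599. It too was lowest with RNAi, and its part in the PRR3B values was not tested. No other clock gene shared its deposited locus with another model.

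GIGANTEA (E2) (Glyma.10G221500, chromosome 10, 45294734 to 45316121), a large plant protein of the clock and flowering pathway, was the highest evening gene. It read 23.6 FPKM (22.1 to 25.2) with GmPHD6-OE, 21.0 FPKM (19.4 to 22.7) with RNAi and 30.3 FPKM (28.6 to 32.0) in K599. As for LHY1a, the K599 column was high, with bounds apart from both construct columns. The construct columns overlapped as deposited, but not under 3 of the 4 scalings tried for GIGANTEA and 2 of the 4 for LHY1a. The log2 difference was -0.34 for GmPHD6-OE against K599 (-0.52 to -0.18) and -0.51 for RNAi against K599 (-0.70 to -0.32), with 0.16 between GmPHD6-OE and RNAi (-0.04 to 0.36). The level was thus 0.780 of K599 with GmPHD6-OE and 0.694 of it with RNAi. Of all genes with a fold, 24.5% and 30.9% differed by more in either direction in these comparisons with K599.

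**Figure D3:**
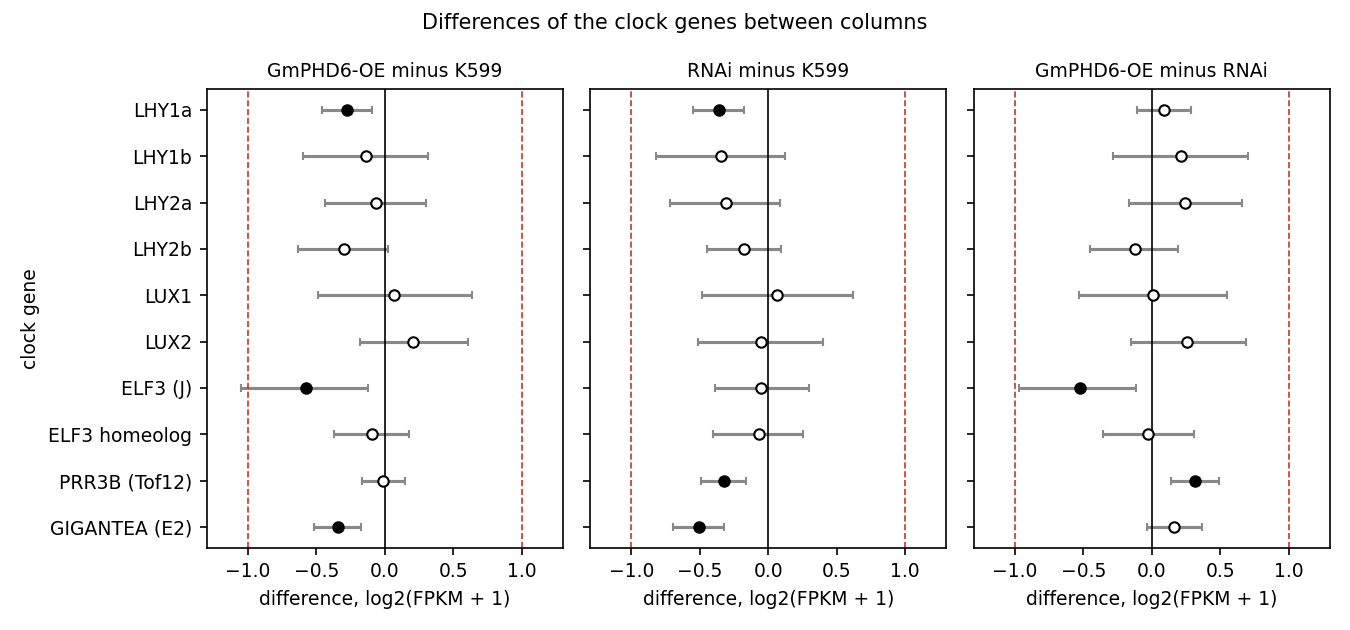
Difference in log2(FPKM + 1) for each clock gene in the 3 comparisons; bars run over the range that the authors' bounds allow, filled points have bounds that do not overlap, and dashed lines mark 2-fold. Every point lies inside the dashed lines, and the farthest is ELF3 (J) at -0.57 for GmPHD6-OE minus K599.

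Counted by bounds alone, without a size rule, 3 of the 10 clock genes were lower with GmPHD6-OE than in K599 (LHY1a, ELF3 (J) and GIGANTEA) and 0 were higher. Over all genes, bounds were apart in 22.0%, and 10.0% were lower. With RNAi against K599, 3 were lower (LHY1a, PRR3B and GIGANTEA) and 0 higher, where bounds were apart in 43.0% of all genes and 18.6% were lower. Between GmPHD6-OE and RNAi, PRR3B was higher and ELF3 (J) lower, so 2 of 10 had bounds apart, where all genes gave 41.5%. Bounds narrow with level, and among genes of a mean of 15 to 50 FPKM, where LHY1a, GIGANTEA and PRR3B lie, 15.6% were lower with GmPHD6-OE and 23.9% lower with RNAi than in K599. These counts rest on bounds that hold no spread between plants.

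The sign of the differences leaned to lower values in the construct columns. Of the 10 clock genes, 8 had a value below 0 with GmPHD6-OE against K599 and 9 with RNAi against K599, beside 47.6% and 45.6% of all genes. Bounds were apart for only 3 genes in each comparison. Both counts use the same pooled K599 column, so they are not independent of each other. The median difference of the clock genes was -0.12 with GmPHD6-OE and -0.24 with RNAi, where the medians over all genes were 0.02 and 0.05. In absolute size the clock genes' median was 0.17 with GmPHD6-OE and 0.24 with RNAi, beside 0.18 and 0.32 over all genes. Between GmPHD6-OE and RNAi it was 0.19, beside 0.32 over all genes. The 5th and 95th percentiles of all genes were -0.61 and 0.53 with GmPHD6-OE against K599 and -1.07 and 1.10 with RNAi against K599, and all 10 clock genes lay between them in both comparisons.

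**Figure D4:**
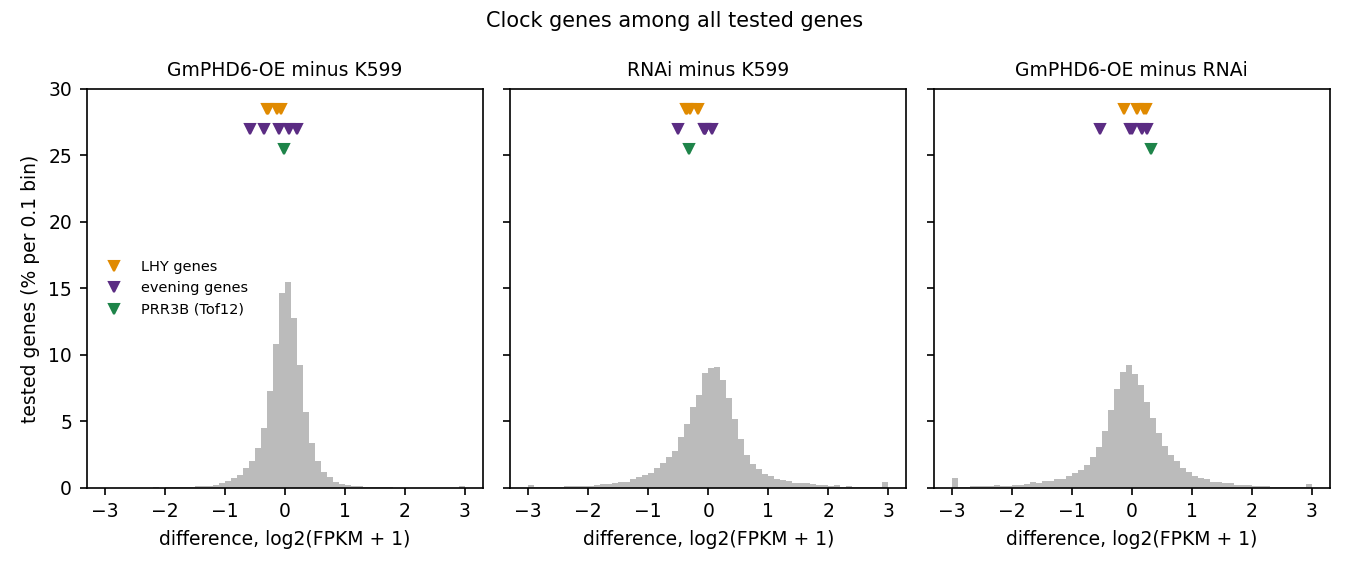
Histogram of the difference in log2(FPKM + 1) over all genes with a fold in each comparison (% of genes per bin of 0.1, values beyond 3 drawn in the last bins), with triangles at the LHY genes, the evening genes and PRR3B. The triangles lie between the 5th and 95th percentiles of all genes in each panel, with medians of -0.12, -0.24 and 0.13 for the 10 clock genes. ELF3 (J), at -0.57 for GmPHD6-OE minus K599, lies near the 5th percentile of -0.61.

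Morning and evening genes were set side by side because their transcripts peak at opposite parts of the day in leaves. The evening set held LUX1, LUX2, ELF3 (J), its homeolog and GIGANTEA. The mean log2 difference from K599 with GmPHD6-OE was -0.19 for the 4 LHY genes and -0.15 for the 5 evening genes. With RNAi it was -0.30 for the LHY genes and -0.12 for the evening genes. Morning minus evening was -0.05 ± 0.18 with GmPHD6-OE against K599, -0.18 ± 0.18 with RNAi against K599 and 0.13 ± 0.18 for GmPHD6-OE against RNAi. Here ± is the authors' bounds combined in quadrature, and it holds neither spread between plants nor spread between genes. For RNAi against K599 the difference was about as large as this range, and for the other comparisons it was within it. The evening genes alone ran from -0.57 to 0.21 with GmPHD6-OE and from -0.51 to 0.06 with RNAi against K599. The range therefore cannot say whether the sets differ. With medians in place of means the value was -0.11 with GmPHD6-OE and -0.28 with RNAi against K599. Without the ELF3 pair it was -0.17 with GmPHD6-OE and -0.13 with RNAi against K599, and -0.04 between the constructs.

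The leading genes of the sets were also compared within columns, where a single scaling factor per column cancels. LHY1a over GIGANTEA was 1.46 with GmPHD6-OE (1.33 to 1.61), 1.54 with RNAi (1.39 to 1.72) and 1.39 in K599 (1.28 to 1.502), with overlapping ranges. Summed over genes, LHY transcripts stood at 48.5 FPKM with GmPHD6-OE, 45.7 FPKM with RNAi and 58.4 FPKM in K599, and evening transcripts at 46.7, 44.3 and 54.2 FPKM in the same columns. The ratio of these sums was 1.04, 1.03 and 1.08. Ratios to PRR3B differed between GmPHD6-OE and K599. GIGANTEA over PRR3B was 1.20 with GmPHD6-OE (1.09 to 1.31), 1.34 with RNAi (1.21 to 1.49) and 1.52 in K599 (1.41 to 1.65), and the ranges for GmPHD6-OE and K599 did not overlap. LHY1a over PRR3B was 1.75 with GmPHD6-OE (1.59 to 1.92), 2.07 with RNAi (1.88 to 2.28) and 2.11 in K599 (1.95 to 2.29), and there too the GmPHD6-OE and K599 ranges were apart. For both ratios the ranges for RNAi and K599 overlapped. The ranges of these ratios combine the bounds in quadrature. They are narrower than ranges of lower bound against upper bound, and whether those would lie apart was not tested. Both ratios rest on PRR3B, whose locus is shared with another model.

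Scaling of the columns moved how many clock genes had bounds apart from K599. The FPKM columns summed to 833516 with GmPHD6-OE, 753999 with RNAi and 676881 in K599. With every column scaled to the same sum, the median over all genes moved to -0.23 with GmPHD6-OE and -0.08 with RNAi, and 6 clock genes with GmPHD6-OE and 5 with RNAi then had lower values with bounds apart. Over all genes the shares lower with bounds apart became 31.0% and 25.2% under that scaling. With the 50 highest genes of each column left out of the sum, 4 and 6 clock genes were lower, where all genes gave 12.8% and 27.9%. LHY1a, ELF3 (J) and GIGANTEA with GmPHD6-OE, and LHY1a, PRR3B and GIGANTEA with RNAi, were among the lower genes under each of the 4 scalings tried. In the direct comparison of the constructs, J was lower and PRR3B higher with GmPHD6-OE under each of them too. There the count of clock genes with bounds apart moved between 2 and 4. GIGANTEA was also higher with GmPHD6-OE than with RNAi, with bounds apart, under median scaling, quantile normalization and the sum without the highest genes, and LHY1a under quantile normalization and the sum without the highest genes.

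Genes with the most similar pattern were sought for LHY1a and GIGANTEA, by distance over the differences of both constructs from K599, a measure that rests on 3 columns. Among 21161 other genes of at least 5 FPKM in a column, Glyma.03G233400 was nearest to LHY1a (distance 0.01), at 10.4 FPKM with GmPHD6-OE, 9.71 FPKM with RNAi and 12.8 FPKM in K599, followed by Glyma.02G257200 (0.01). Nearest to GIGANTEA were Glyma.05G240100 (0.01), at 84.1 FPKM with GmPHD6-OE, 74.6 FPKM with RNAi and 107 FPKM in K599, and Glyma.10G167300 (0.01). Within a distance of 0.1 lay 235 genes for LHY1a (1.11% of those compared) and 131 for GIGANTEA (0.619%). LHY1a and GIGANTEA lay 0.16 from each other.

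The clock genes lie on 9 chromosomes, with LUX1 and PRR3B both on chromosome 12. Of the 40 gene models that flank them, 2 on each side, 23 could be tested. None of these 23 passed the fold rule with GmPHD6-OE against K599, 3 passed with RNAi against K599 and 3 between GmPHD6-OE and RNAi. Over all genes the rule called 2.22%, 11.2% and 11.9% in the same order, so these counts lie near the background. The model that shares the deposited locus of PRR3B is counted among the 40.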

How the data were processed

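Total RNA of 6 hairy root libraries was sequenced, 2 per group. The authors deposited FPKM values with lower and upper bounds and a flag per gene, 1 column per group with both libraries combined, per the file headers. The submitters' processing notes name TopHat, an aligner. No version, quantification program, strand setting or confidence level is given in the sources used here. Coordinates follow the deposited table, whose identifiers end in Wm82.a2.v1. RNAi and K599 columns bear their groups' names, and G6 was assigned to GmPHD6-OE as an abbreviation of GmPHD6. The fragments behind each value are not used here, so depth is unknown beyond the width of the bounds.

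Values were analysed with pandas 2.3.3 and numpy 2.4.6 in Python 3.11.15. Genes entered when flagged OK throughout with 1 FPKM or more in any column (33291). Where either column was listed at 0, no fold was given. Differences use log2(FPKM + 1), and the fold rule is 2-fold with bounds that do not overlap. It was checked on simulated columns whose changed genes differed by 4-fold only, all of at least 5 FPKM in K599. That check covers neither 2-fold changes nor the clock genes below this level. With pooled columns no test across libraries was made. The members, lists and rules were chosen with earlier results of these data known. All 10 members are named; similar genes are the nearest 2 each to LHY1a and GIGANTEA. A list of other clock genes and one of tissue markers, both to be matched by RefSeq description, were not used, since 0 identifiers matched. No sequences are shown, since no sequence was used here.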

Additional observations from a re-analysis of the deposited data

How the results depend on the processing

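No paired analysis was possible because each group has 1 pooled column and no test was made; for the same reason no library could be left out. The count of clock genes past the fold rule was 0 in each comparison under pseudocounts of 0.1 and 0.5, 4 scalings, 2 filters, no rule on bounds, and 4-fold and 1.5-fold rules. Each alternative changed 1 setting only, so the 1.5-fold rule was run on log2(FPKM + 1) alone. On that scale ELF3 (J) stayed short of 1.5-fold. Its plain FPKM ratio, with bounds apart, was 0.597 for GmPHD6-OE against K599 and 0.623 for GmPHD6-OE against RNAi. With a pseudocount of 0.1 its log2 differences there were -0.72 and -0.66. With bounds apart at any size, tried after seeing the data, the count of clock genes was 3 for GmPHD6-OE against K599, 3 for RNAi against K599 and 2 for GmPHD6-OE against RNAi. The counts over all genes, 732, 3683 and 3916 in the same order, became 7245, 14178 and 13656 with bounds apart at any size, 125, 827 and 996 at 4-fold and 2509, 7810 and 8023 at 1.5-fold, which follows from the rule's own size; log2(FPKM + 0.1) gave 1257 for GmPHD6-OE against K599, since it gives low genes larger differences by construction. Morning minus evening moved by less than its range under every alternative run, but that range is about as large as the values or larger. Without the ELF3 pair it went from -0.05 to -0.17 for GmPHD6-OE against K599. For GmPHD6-OE against RNAi it then changed sign, from 0.13 to -0.04. Of 180 recomputed clock gene differences 11 changed sign, each with overlapping bounds, and 6 left the range of their bounds. These 6 were LHY1a, PRR3B and GIGANTEA under sum scaling, at -0.57, -0.29 and -0.63 with GmPHD6-OE, and at -0.56, -0.52 and -0.70 with RNAi when the 50 highest genes of each column were left out of the sum, a scaling chosen after seeing the data. The bounds were widest for LHY1b with RNAi (24.9% of the value), LUX1 in K599 (24.6%) and ELF3 (J) with GmPHD6-OE (26.2%), which limits what can be seen for them; how much of this width is depth was not tested.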
